A study of Mus musculus with 6 samples.

Results

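To investigate how Nsd2-deleted colon epithelium was equipped to sense drugs, bile acids, vitamin D, fatty acids and indoles, 10 receptor genes were examined. These were Nr1i2 (PXR), Nr1h4 (FXR), Vdr, Ppara, Pparg, Ppard, Ahr, its repressor Ahrr, Rxra, the partner of several of them, and Nr5a2 (LRH-1). The genes were picked by symbol, and each symbol stood on 1 of the 55487 rows of the count table. RNA-seq had been performed on intestinal epithelial cells (IECs) from the mouse colon, with 3 libraries labelled Nsd2 f/f and 3 labelled Nsd2 Vil-KO. Nsd2 f/f mice carried floxed Nsd2 alleles without Cre, although their sample titles call them WT, and Nsd2 Vil-KO mice carried the same alleles with Cre under the Villin promoter, which is active in gut epithelium, so that other cells keep NSD2. DSS (dextran sodium sulphate), a chemical that damages the lining of the colon, had been given to the mice of all 6 libraries, and no library of untreated mice was analysed here. The labels give no dose or age. According to the methods of the study, colitis was induced with 2% DSS at 2 months of age. Nothing in the labels says that each library came from a separate mouse, so the p-values measure the spread between these libraries.

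PXR, FXR, VDR and the PPARs are nuclear receptors that bind small lipophilic ligands and sit on DNA as a dimer with RXR. In the gut, PXR answers to drugs and other foreign compounds, FXR to bile acids, VDR to vitamin D and PPARs to fatty acids, and each switches on genes for the uptake, oxidation or export of its ligands. AhR belongs to another family: it waits in the cytoplasm in a chaperone complex, binds planar ligands such as indoles, and pairs with ARNT in the nucleus. LRH-1 acts on DNA as a monomer and takes part in steroid synthesis and crypt renewal.

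The libraries held 15439123 to 20350539 counts. Levels are given as CPM, the counts of a gene relative to the library total, after scaling of library sizes by the trimmed mean of M-values (TMM), and the limit that 0 counts allows (3 counts, counting error only) lay between 0.146 and 0.242 CPM. Of the 12 epithelium markers, all were counted, with a summed level of 17100 to 27600 CPM in Nsd2 f/f and 18800 to 27000 CPM in Nsd2 Vil-KO. Values of single libraries are listed here in the order of their replicate numbers. Nsd2, the deleted gene, was found at 47.9, 51.2 and 24.6 CPM under the f/f label, whereas the Vil-KO label had 24.2, 10.4 and 20.8 CPM. Its log2 fold change was -1.16 (unadjusted p = 0.0217, adjusted p = 0.992 by edgeR). A screening rule was taken from the study's results: a fold change over 1.2 with a p below 0.05, used here unadjusted. Nsd2 missed this rule when f/f replicate 1 or 2 was left out (log2 fold change -1.04 and -0.97). It passed without each of the other libraries and in the 4 libraries described next (log2 fold change -1.13, unadjusted p = 7.84e-05 by edgeR). The library labelled f/f replicate 3 thus nearly met Vil-KO replicate 1. The library labelled f/f replicate 3 and Vil-KO replicate 2 stood apart from the rest. The library labelled f/f replicate 3 had 19.6% of its counts on mitochondrial genes against 5.51% to 9.13% elsewhere. It and Vil-KO replicate 2 held Xist, an RNA of female cells, at 347 and 204 CPM against at most 0.255 CPM in the others. Values are therefore given with all 6 libraries and with the 4 that remain without that pair, all of low Xist. Sex was not a covariate in either fit.

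No receptor gene passed this screening rule. Of the 10 genes, 9 were counted deeply enough to be tested by edgeR's quasi-likelihood test, and 0 of the 9 passed, where 482 of 14650 tested genes (3.29%) passed in either direction. With Benjamini-Hochberg adjustment over all tested genes, 0 genes of the whole table (0%) had an adjusted p below 0.05 in edgeR, 482 had an unadjusted p below 0.05, and DESeq2 gave 4 genes below the adjusted limit. The CPM of the genotypes overlapped for all 10 receptor genes, including Ahrr, which was not tested. They did not overlap for 9.90% of all tested genes. For so few genes, a count of 0 is near this share and near the 3.29% above. The median log2 fold change of the 9 receptors was 0.11 and that of all tested genes was 0.00. In such bulk samples, fewer cells of a type and less RNA per cell cannot be told apart.

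**Figure D1:**
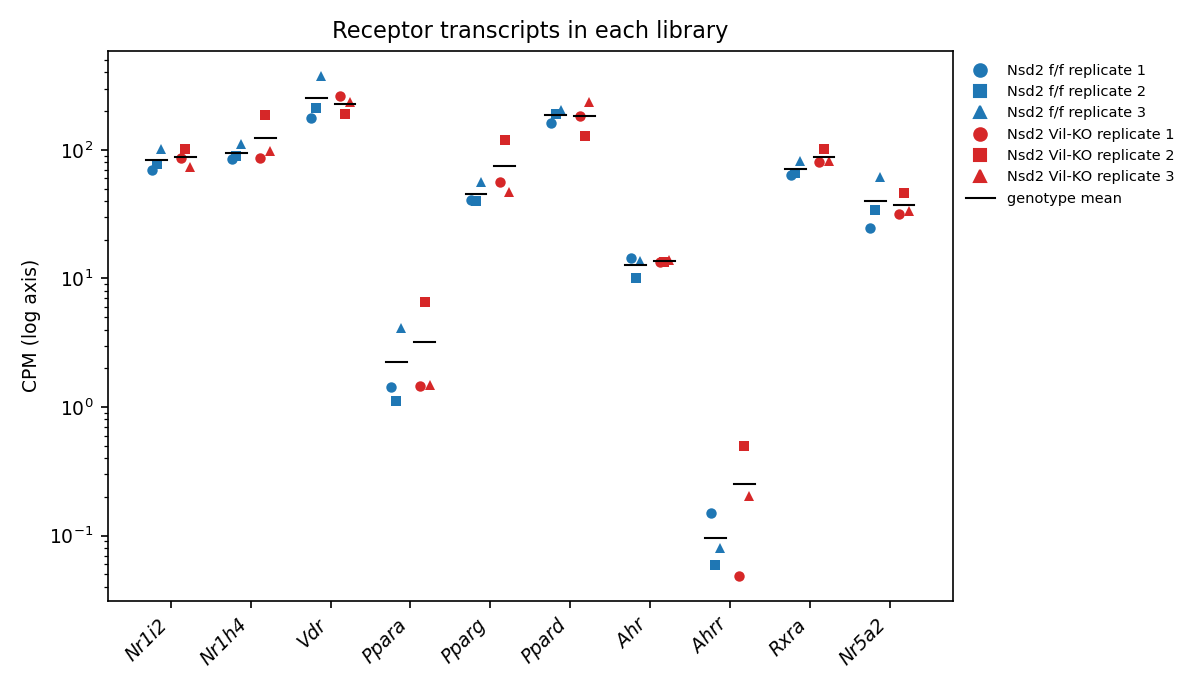
CPM (log axis) of the 10 receptor genes in 3 Nsd2 f/f libraries (blue) and 3 Nsd2 Vil-KO libraries (red), with a bar at each genotype mean. The points of both genotypes interleave for every gene, and Vil-KO replicate 2 (red square) lies highest for Pparg at 120 CPM and for Nr1h4 at 186 CPM.

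The receptors differed far more from each other than between genotypes. Per kilobase of exon, Nr1h4 averaged 47.5 CPM over the 6 libraries, Vdr 42.9, Nr1i2 33.4, Ppard 24.5, Pparg 20.4, Rxra 14.5, Nr5a2 6.55, Ahr 2.14, Ppara 0.705 and Ahrr 0.0184 CPM per kb. FXR and VDR transcripts were thus the most abundant per length and the AhR repressor was near the counting limit. The length joins the exons of all annotated transcripts of a gene, and the order depends on it. Without this division, Vdr (mean 242 CPM) and Ppard (184 CPM) lay above Nr1h4 (109 CPM). Neighbours at the top of this order were not cleanly separated: Nr1h4 lay above Vdr in 4 of 6 libraries, Vdr above Nr1i2 in 5, Nr1i2 above Ppard in 5 and Ppard above Pparg in 5. From Pparg downward, every gene lay above the next in 6 of 6 libraries. Among the PPARs, Ppard exceeded Ppara by 10 to 86.5 times per length, whereas the ratio of Ppard to Pparg ran from 0.422 in Vil-KO replicate 2 to 1.97 in Vil-KO replicate 3.

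**Figure D2:**
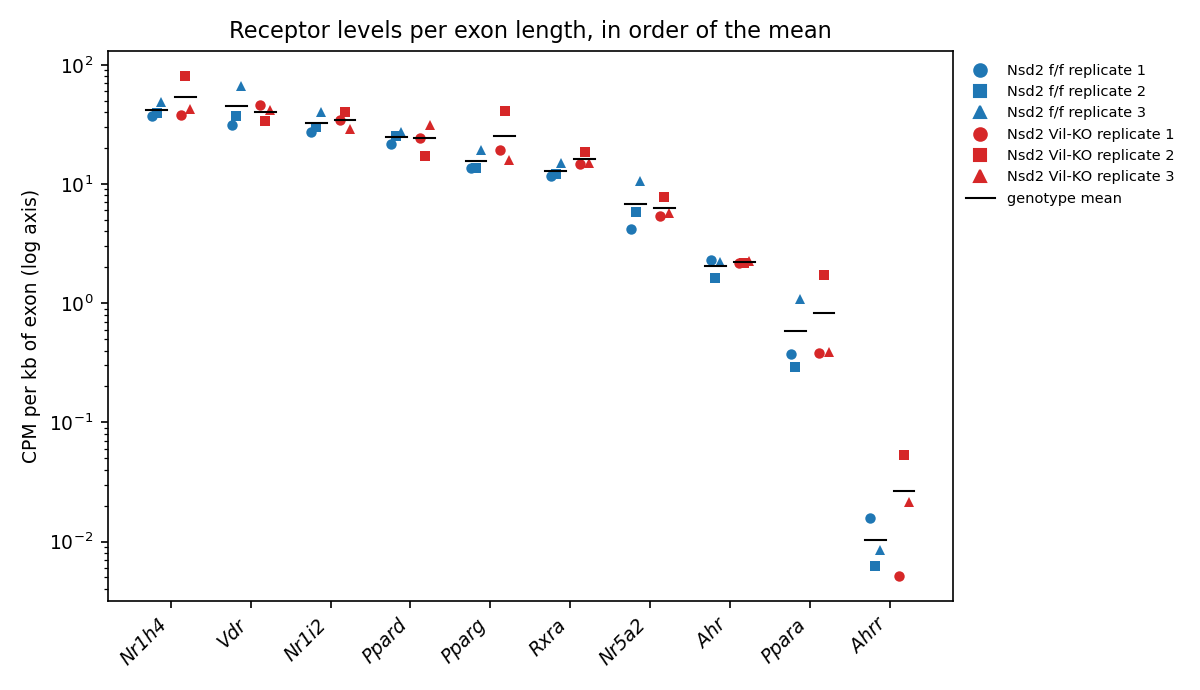
CPM per kb of exon (log axis) of the receptor genes in order of their mean over 6 libraries, with symbols for each library and bars at genotype means. The first 6 genes each overlap a neighbour in range, while Nr5a2, Ahr, Ppara and Ahrr keep this order in every library.

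Nr1i2 (ENSMUSG00000022809, chr16:38248323-38294824, minus strand, GRCm38) encodes PXR, the main sensor of foreign compounds. It measured 69.2, 77.3 and 102 CPM in Nsd2 f/f and 87.0, 102 and 74.1 CPM in Nsd2 Vil-KO. The highest values of both genotypes coincided, and the whole range covered a ratio of 1.48 between highest and lowest library. Its log2 fold change (Vil-KO minus f/f) was 0.09 with a standard error (SE) of 0.22, a 95% interval of -0.42 to 0.59 and an adjusted p of 0.996 by edgeR's quasi-likelihood test. Without the pair of libraries that stood apart it was 0.15, with an interval of -0.16 to 0.46. The ratio of Nr1i2 to its partner Rxra per length was 2.32, 2.51 and 2.68 in Nsd2 f/f and 2.30, 2.15 and 1.93 in Nsd2 Vil-KO. This ratio was lower in every Vil-KO library, and the exact two-sided permutation test gave p = 0.1, the smallest that 3 against 3 libraries allow; 5 such ratios were computed, and the other 4 overlapped between genotypes (exact p of 0.5 to 1).

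Of 14 PXR target genes, 10 were tested and 0 passed the screening rule. Their median log2 fold change was -0.21. The most abundant was Alas1, the first enzyme of haem synthesis, at 159 ± 14.7 CPM in Nsd2 f/f and 169 ± 20.7 CPM in Nsd2 Vil-KO (SD, n = 3). Abcb1a, a drug efflux pump, measured 62.4, 88.0 and 280 CPM in Nsd2 f/f and 89.3, 148 and 66.0 CPM in Nsd2 Vil-KO. Sult1a1, a sulphotransferase of phenols, measured 81.0, 118 and 210 CPM in Nsd2 f/f and 48.9, 176 and 33.7 CPM in Nsd2 Vil-KO. Both were highest within their genotype in the library that stood apart. The spread was widest for the cytochrome P450 gene Cyp2c55, a gene picked here after its values were seen, with 8.22, 2.95 and 304 CPM in Nsd2 f/f and 19.5, 56.2 and 0.255 CPM in Nsd2 Vil-KO, while Nr1i2 was at 102 CPM both in f/f replicate 3 and in Vil-KO replicate 2, where Cyp2c55 was highest within each genotype.

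Nr1h4 (ENSMUSG00000047638, chr10:89454234-89533585, minus strand) encodes FXR, the bile acid receptor that dampens bile acid uptake and switches on export through the basolateral transporter OSTalpha-OSTbeta, encoded by Slc51a and Slc51b. It measured 85.2, 89.8 and 111 CPM in Nsd2 f/f and 87.1, 186 and 98.0 CPM in Nsd2 Vil-KO. All libraries but Vil-KO replicate 2 lay between 85.2 and 111 CPM. Between genotypes it differed by 0.38 on the log2 scale (SE 0.31, 95% interval -0.36 to 1.11, adjusted p = 0.992 by edgeR) and became -0.04 without Vil-KO replicate 2. In the 4 libraries it was 0.09, with an interval of -0.17 to 0.35.

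Of 14 FXR and bile acid genes, 9 were tested, and 1 passed the screening rule, Slc51a, higher in Nsd2 Vil-KO (1.65% of all tested genes passed as higher). Slc51a measured 0.149, 0.118 and 0.889 CPM in Nsd2 f/f and 0.975, 20.8 and 0.102 CPM in Nsd2 Vil-KO. Its groups overlapped, and its log2 fold change of 4.39 (SE 1.79, adjusted p = 0.992 by edgeR) rests on Vil-KO replicate 2, since the other 5 libraries held at most 0.975 CPM: without that library it was 0.69 (unadjusted p = 0.57). The rule was also missed without f/f replicate 1 or 2 (log2 fold change 3.95 in each). Slc51b was also highest there, at 36.8 CPM against 11.7 to 22.8 CPM in the others, as was the apical bile acid transporter gene Slc10a2, at 68.1 CPM against 1.23 to 12 CPM. Both were picked after their values were seen. The 3 most abundant genes of the list were Abcc3, a basolateral exporter of conjugates (245 ± 90.2 CPM in Nsd2 f/f, 310 ± 129 CPM in Nsd2 Vil-KO), Abcg5, part of the sterol exporter (30.1 ± 5.11 and 34.3 ± 18.9 CPM), and Cyp27a1, a sterol hydroxylase (24.5 ± 9.80 and 29.0 ± 20.2 CPM; SD, n = 3 for all). The hormone gene Fgf15, an FXR target of the ileum, had 0 counts in 6 of 6 libraries.

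The hexamer AGGTCA, to which nuclear receptors of this family bind singly or as a repeat, was searched on both strands from 250 bases before to 50 bases after the starts of RefSeq genes (GRCm38.p6). It stood in 16.3% of 32851 such windows and in 22.1% of the 77 windows of target genes. Of the receptor genes, 9 had windows (Ahr had none), 13 in all. The hexamer stood in 5 of the 13 (38.5%, not tested against the share of all windows), which belong to Nr1h4, Nr5a2, Pparg and Rxra. It also stood in that of Slc51a. The stretches are shown for the FXR gene and for the bile acid gene that passed the rule, with the hexamer or its reverse complement TGACCT in capitals. Positions count from the RefSeq start of the window, which for Nr1h4, Cpt1a and Cyp1a1 lies inside a longer annotated transcript. That of Nr1h4 begins the hexamer at -214 and lies at chr10:89506837-89506902, minus strand, and that of Slc51a begins it at -58 and lies at chr16:32487902-32487967, minus strand.
Nr1h4: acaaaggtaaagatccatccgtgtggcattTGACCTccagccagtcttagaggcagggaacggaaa
Slc51a: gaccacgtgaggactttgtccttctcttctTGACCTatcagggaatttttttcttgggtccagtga
A match is a description of letters and was not tested for binding.

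Vdr (ENSMUSG00000022479, chr15:97854425-97910630, minus strand) encodes the vitamin D receptor, which controls calcium uptake. It measured 178, 210 and 377 CPM in Nsd2 f/f and 262, 191 and 234 CPM in Nsd2 Vil-KO. The library labelled f/f replicate 3 was the highest of the 6 and f/f replicate 1 the lowest. With all libraries its log2 fold change was -0.15 (SE 0.32, 95% interval -0.90 to 0.59, adjusted p = 0.996 by edgeR), and 0.24 without f/f replicate 3. The sign turned without the pair that stood apart: 262 and 234 CPM in Nsd2 Vil-KO then lay above 178 and 210 CPM in Nsd2 f/f, with a log2 fold change of 0.37 (interval 0.06 to 0.67, unadjusted p = 0.0266, adjusted p = 0.413 by edgeR). Within that pair the order was opposite, since Vil-KO replicate 2 had 191 CPM and f/f replicate 3 had 377 CPM.

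Of 10 VDR targets, 7 were tested and 0 passed the screening rule, with a median log2 fold change of 0.07. Cdkn1a, an inhibitor of the cell cycle, averaged 225 ± 119 CPM in Nsd2 f/f and 236 ± 88.6 CPM in Nsd2 Vil-KO. Cldn2, a pore-forming tight junction protein, averaged 256 ± 95.3 and 204 ± 82.2 CPM, and Atp2b1, a calcium pump of the basolateral membrane, 137 ± 39.1 and 148 ± 15.1 CPM (SD, n = 3 for all). The calcium channel gene Trpv6, picked after its values were seen, measured 9.51, 12.2 and 15.9 CPM in Nsd2 f/f and 20.2, 10.2 and 68.1 CPM in Nsd2 Vil-KO, with its highest value in Vil-KO replicate 3 and not in the pair that stood apart. Cyp24a1, which degrades vitamin D, was at 0 in 5 of 6 libraries and at 0.0591 CPM in f/f replicate 2.

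Pparg (ENSMUSG00000000440, chr6:115360951-115490399, plus strand) encodes PPARgamma, which in colonocytes accompanies differentiation and fatty acid use. It measured 40.4, 40.1 and 56.3 CPM in Nsd2 f/f and 56.6, 120 and 47.2 CPM in Nsd2 Vil-KO. Vil-KO replicate 2 stood at more than double any other library, and the remaining 5 lay between 40.1 and 56.6 CPM. Its log2 fold change of 0.71 was the largest of the receptors (SE 0.37, 95% interval -0.16 to 1.59, unadjusted p = 0.0953, adjusted p = 0.992 by edgeR; exact permutation p = 0.2), and it was 0.19 without Vil-KO replicate 2. In the 4 libraries it was 0.38, with 56.6 and 47.2 CPM in Nsd2 Vil-KO above 40.4 and 40.1 CPM in Nsd2 f/f (interval 0.06 to 0.70, unadjusted p = 0.0266, adjusted p = 0.413 by edgeR). Pparg is also the master regulator of fat cells. The 5 adipocyte markers summed to 2.07 to 3.57 CPM in Nsd2 f/f and 0.971 to 25.2 CPM in Nsd2 Vil-KO, of which Cidec, a lipid droplet gene, made up 25.1 CPM in Vil-KO replicate 2. The defining markers Adipoq and Lep were at 0 in 6 of 6 libraries and Plin1 did not pass 0.0591 CPM.

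Ppara (ENSMUSG00000022383, chr15:85734983-85802819, plus strand), the fasting regulator of fatty acid oxidation, was scarce in these cells, with 1.44, 1.12 and 4.12 CPM in Nsd2 f/f and 1.46, 6.60 and 1.48 CPM in Nsd2 Vil-KO. The pair that stood apart held its highest values, 1 in each genotype, and the log2 fold change was 0.55 (SE 0.79, 95% interval -1.31 to 2.41, adjusted p = 0.993 by edgeR) and -0.53 without Vil-KO replicate 2. Ppard (ENSMUSG00000002250, chr17:28232700-28301474, plus strand), the broadly expressed member of the group, measured 163, 190 and 203 CPM in Nsd2 f/f and 184, 129 and 236 CPM in Nsd2 Vil-KO. It ran against the other PPARs in Vil-KO replicate 2, where it was lowest of all libraries. Its log2 fold change was -0.02 (SE 0.25, 95% interval -0.61 to 0.58, adjusted p = 0.999 by edgeR).

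PPAR targets form the longest list, with 27 genes of which 22 were tested. None passed the screening rule (0 of 22), and the median log2 fold change was 0.13. Ucp2, a mitochondrial carrier, averaged 532 ± 150 CPM in Nsd2 f/f and 443 ± 82.9 CPM in Nsd2 Vil-KO, and Acadl, a dehydrogenase of fatty acid oxidation, 240 ± 22.6 and 375 ± 274 CPM (SD, n = 3 for both). The level of these genes followed the library more than the genotype: 21 of 22 were highest in Vil-KO replicate 2 (11 genes) or in the library labelled f/f replicate 3 (10 genes), where 52.4% of all tested genes had their highest value. Some genes picked after their values were seen were high in Vil-KO replicate 2 alone. Angptl4, a secreted inhibitor of lipoprotein lipase, measured 25.3 CPM there against at most 0.808 CPM in the other 5 libraries, and Pdk4, which shuts glucose oxidation, 24.1 CPM against at most 0.566 CPM.

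**Figure D3:**
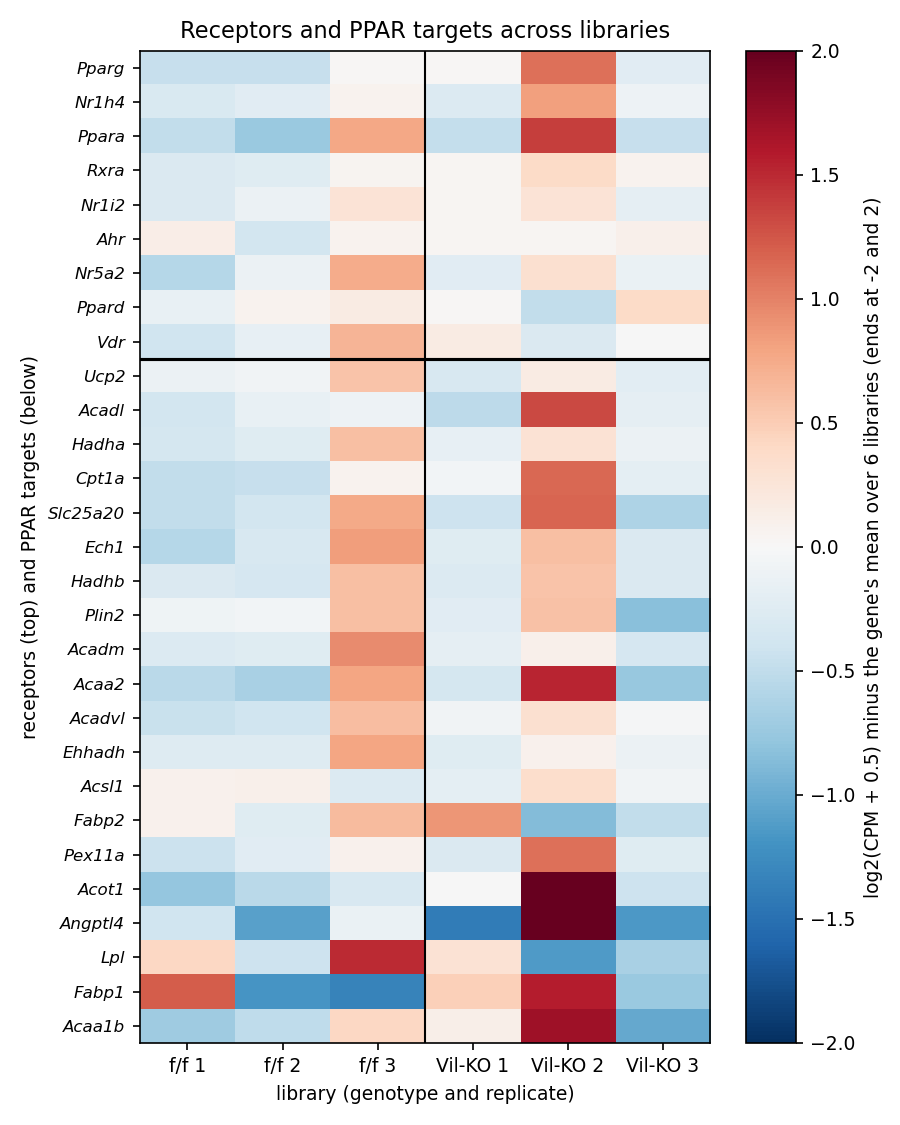
log2(CPM + 0.5) of the 9 tested receptor genes (above the line) and 20 of the 22 tested PPAR targets, each minus its mean over 6 libraries, with red above and blue below the mean and colours ending at -2 and 2. The columns of f/f replicate 3 and Vil-KO replicate 2 are red for most PPAR targets, while Vdr and Ppard do not share the red of Vil-KO replicate 2.

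Pattern likeness was measured as the root mean square difference of log2 CPM over 6 libraries, each gene centred on its own mean, among 13340 genes of at least 1 CPM on average. For Pparg the nearest gene was Cpt1a (difference 0.04), the carnitine transferase that admits fatty acids to mitochondria and itself a member of the PPAR list, followed by Hipk2 and Sdcbp2 (0.07 each). Cpt1a measured 145, 147 and 214 CPM in Nsd2 f/f and 196, 450 and 177 CPM in Nsd2 Vil-KO, so it too was highest in Vil-KO replicate 2. The nearest receptor to Pparg was Nr1h4 (0.21), with 96 genes nearer. For Nr1i2 the nearest were Dmap1, Spag9 and Dennd1c (0.06 each), and the nearest receptor was Rxra (0.15). For Vdr they were Scrn2 (0.09), Cyp2d34 and Pdzd2 (0.10 each), and for Ahr Ttc5, Prkaca and Eefsec (0.08 each). With 6 libraries that share an outlying pair, likeness is a description only. The hexamer AGGTCA stood near the starts of both Pparg and Cpt1a, shown here because these genes were nearest in pattern. For Pparg it begins at -28 from 1 of its starts, within an exon of a longer transcript, at chr6:115361104-115361133, plus strand, and for Cpt1a at -94, at chr19:3323177-3323242, plus strand.
Pparg: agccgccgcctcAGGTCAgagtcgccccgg
Cpt1a: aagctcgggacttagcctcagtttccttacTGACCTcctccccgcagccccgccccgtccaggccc
Capitals mark the hexamer or its reverse complement.

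Rxra (ENSMUSG00000015846, chr2:27676440-27762957, plus strand) encodes the shared partner of PXR, FXR, VDR and the PPARs. It measured 63.8, 66.0 and 81.4 CPM in Nsd2 f/f and 81.0, 102 and 82.2 CPM in Nsd2 Vil-KO. The genotypes overlapped only because f/f replicate 3 (81.4 CPM) lay above Vil-KO replicate 1 (81.0 CPM). Rxra varied least between replicates of all tested receptors, with a within-genotype SD of 0.19 on the log2 scale against a median of 0.43 over the receptors and 0.41 over all tested genes. It differed by 0.33 on the log2 scale (SE 0.18, 95% interval -0.11 to 0.76, unadjusted p = 0.118, adjusted p = 0.992 by edgeR; exact permutation p = 0.2). It was 0.34 in the 4 libraries (interval 0.09 to 0.59, unadjusted p = 0.0138, adjusted p = 0.375 by edgeR). Rxrb, another RXR gene, measured 61.5, 59.2 and 61.0 CPM in Nsd2 f/f and 58.7, 73.4 and 52.9 CPM in Nsd2 Vil-KO, and Rxrg was at 0 in 6 of 6 libraries.

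Thus 3 of 9 receptors, Vdr, Pparg and Rxra, passed the screening rule as higher in Nsd2 Vil-KO in the 4 libraries. In that comparison 11.0% of all tested genes passed in either direction and 5.60% as higher. Other settings gave fewer: Pparg and Rxra passed when libraries were scaled by library size only (2.61% of all tested genes passed), Rxra with limma-voom and quality weights (9.83%), and Pparg without Vil-KO replicate 3 (3.40%). Of the target genes, 12 of 56 tested in the 4 libraries passed (21.4%), 10 higher and 2 lower, with a lowest adjusted p of 0.345. Among these, Nqo1, Abcc3, Ccnd1, Atp2b1, Acadvl, Cpt1a, Abcg5, Fos and Abcc2 were higher in Nsd2 Vil-KO, and Sult1a1 and Tiparp lower.

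**Figure D4:**
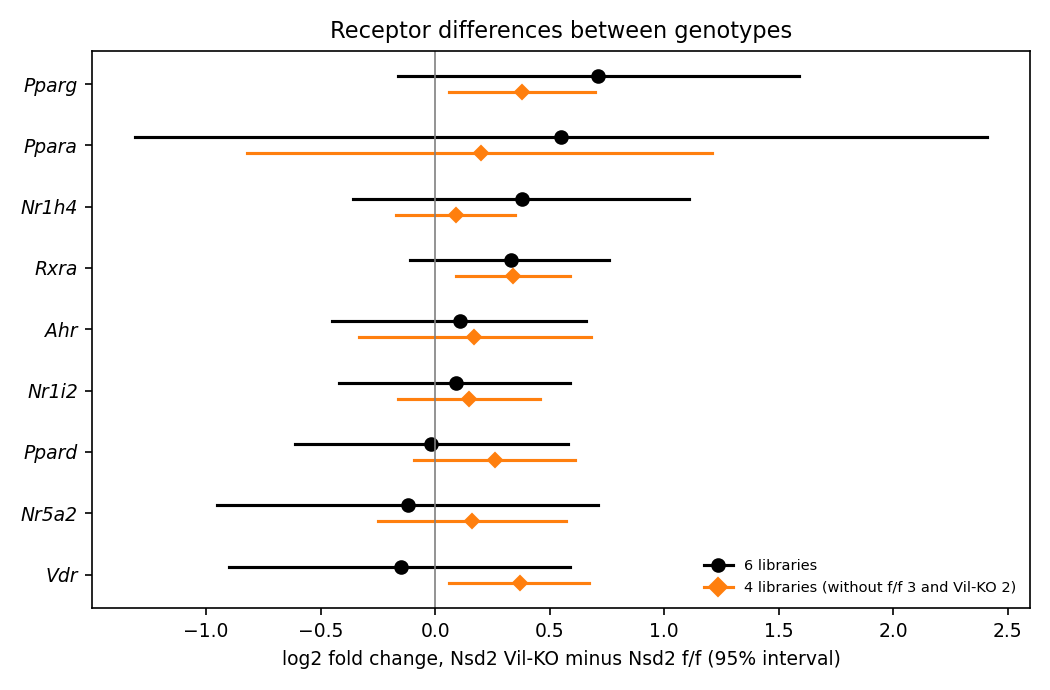
log2 fold change (Nsd2 Vil-KO minus Nsd2 f/f) of the 9 tested receptors with 95% intervals, from all 6 libraries (black circles) and from 4 libraries without f/f replicate 3 and Vil-KO replicate 2 (orange diamonds). All black intervals cover 0, and the orange intervals of Pparg, Rxra and Vdr lie above 0.

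Ahr (ENSMUSG00000019256, chr12:35497974-35535038, minus strand) encodes the aryl hydrocarbon receptor. It measured 14.3, 10 and 13.7 CPM in Nsd2 f/f and 13.4, 13.5 and 14.0 CPM in Nsd2 Vil-KO. Its level was steady, with a ratio of 1.43 between the highest and lowest library, the smallest of the receptors. Ahr had a log2 fold change of 0.11 (SE 0.24, 95% interval -0.45 to 0.66, adjusted p = 0.996 by edgeR). Its exons share 127 bases with the noncoding gene Gm48236 on the opposite strand, and the strand setting of the counting is not given in the sources used here. Ahrr (ENSMUSG00000021575, chr13:74211118-74292331, minus strand), which competes with AhR for its partner, had 3, 1 and 1 counts in Nsd2 f/f and 1, 9 and 4 counts in Nsd2 Vil-KO. It was not tested, and no difference was detectable at this depth. Arnt, the partner of AhR, measured 43.9, 42.6 and 44.8 CPM in Nsd2 f/f and 40.8, 52.5 and 49.6 CPM in Nsd2 Vil-KO.

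Of 10 AhR targets other than Ahrr, 6 were tested, and 1 passed the screening rule as lower in Nsd2 Vil-KO (1.65% of all tested genes passed as lower). This was Scin, which encodes an actin-severing protein, with 31.9, 41.0 and 119 CPM in Nsd2 f/f and 15.1, 27.3 and 31.4 CPM in Nsd2 Vil-KO. Its genotypes did not overlap, though 31.9 and 31.4 CPM nearly met, and its log2 fold change was -1.37 (SE 0.53, unadjusted p = 0.0365, adjusted p = 0.992 by edgeR). It rests on the highest f/f library: without f/f replicate 3 the log2 fold change was -0.56 (unadjusted p = 0.148), and the rule was also missed without Vil-KO replicate 1 (-1.12) or 2 (-1.45). Fos, an immediate early gene, was higher in every Vil-KO library (114, 150 and 148 CPM in Nsd2 f/f, 177, 233 and 162 CPM in Nsd2 Vil-KO) without passing the rule (log2 fold change 0.47, unadjusted p = 0.0658, adjusted p = 0.992 by edgeR). Nqo1, a quinone reductase, measured 12.6, 12.9 and 44.7 CPM in Nsd2 f/f and 18.6, 91.3 and 21.6 CPM in Nsd2 Vil-KO. Cyp1a1, the classical AhR target, was named after its values were seen: it was at 0 in 5 libraries and at 4.05 CPM in Vil-KO replicate 2, where Ahr was at 13.5 CPM. Tiparp, which feeds back on AhR, measured 11.8 to 28.2 CPM in Nsd2 f/f and 17.2 to 29.0 CPM in Nsd2 Vil-KO.

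The letters GCGTG, the core to which AhR and ARNT bind, stood on either strand in 32.4% of the windows around gene starts, so that a match is common. Stretches are shown for Ahrr, for Cyp1a1 and for Scin, with the core in capitals. They lie at chr13:74292404-74292468, minus strand, with the first core at -107, at chr9:57697529-57697593, plus strand, at -54, and at chr12:40134229-40134293, minus strand, at -35.
Ahrr: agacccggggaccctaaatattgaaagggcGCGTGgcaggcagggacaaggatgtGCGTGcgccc
Cyp1a1: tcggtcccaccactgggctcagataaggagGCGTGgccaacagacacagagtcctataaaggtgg
Scin: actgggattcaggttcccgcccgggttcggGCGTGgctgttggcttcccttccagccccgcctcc
None of these matches was tested for binding.

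Nr5a2 (ENSMUSG00000026398, chr1:136842571-136960448, minus strand) encodes LRH-1. It measured 24.8, 34.0 and 62.0 CPM in Nsd2 f/f and 31.5, 46.1 and 33.5 CPM in Nsd2 Vil-KO. The library that stood apart was the highest within each genotype. The log2 fold change was -0.12 (SE 0.35, 95% interval -0.95 to 0.71, adjusted p = 0.996 by edgeR) and 0.16 in the 4 libraries (interval -0.25 to 0.57). Of 11 LRH-1 targets, 4 were tested, and 0 passed the screening rule. Ccnd1, a cyclin of the crypt, averaged 57.9 ± 26.5 CPM in Nsd2 f/f and 84.1 ± 51.0 CPM in Nsd2 Vil-KO, Scarb1, a lipoprotein receptor, 20.9 ± 1.33 and 27.9 ± 14.8 CPM, and Slc27a2, a fatty acid transporter, 12.2 ± 4.41 and 13.7 ± 5.88 CPM (SD, n = 3 for all). The steroid synthesis genes Cyp11a1 and Cyp11b1 reached at most 0.404 and 0.111 CPM.

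Counting each gene once, the receptors had 85 targets, of which 58 were tested. Of these, 2 passed the screening rule, a share near the 3.29% of all tested genes. Their log2 fold change was above 0 for 37 and below 0 for 21, with a median of 0.13, where 7346 of all 14650 tested genes lay above 0 and 7304 below. In all, 23 of the 58 were highest in Vil-KO replicate 2 and 22 in the library labelled f/f replicate 3 (28.7% and 23.7% of all tested genes). Among the receptors themselves, 5 of 9 were highest in Vil-KO replicate 2 and 2 of 9 in f/f replicate 3. Summed cell type markers also differed between libraries. In f/f replicate 3 and Vil-KO replicate 2, the stem and proliferating cell markers summed to 176 and 252 CPM, against 659 to 891 CPM elsewhere. Single genes of that list differed within this pair. Lgr5 was at 7.11 and 0.111 CPM (12.6 to 14.9 CPM elsewhere) and Ascl2 at 5.25 and 0.277 CPM (5.17 to 7.58 CPM). Cdk1 was at 10.9 and 38.2 CPM (42.3 to 57 CPM elsewhere). The fibroblast and muscle markers summed to 6.62 and 7.99 CPM in the pair against 20 to 266 CPM, and the epithelium markers to 27600 and 27000 CPM against 17100 to 20100 CPM. Not every epithelium marker was higher in the pair. Lgals4 was at 7510 and 9260 CPM (3580 to 4340 CPM elsewhere), but Cdh1 at 1250 and 1180 CPM (1360 to 1560 CPM elsewhere). Krt20 and Cdx1 were lowest of all libraries in Vil-KO replicate 2, at 640 and 378 CPM. These lists were named after their values were seen, and not every list set the pair apart. The goblet cell markers summed to 13200 to 15500 CPM in Nsd2 f/f and 8930 to 10600 CPM in Nsd2 Vil-KO, with no overlap. Of the 8 genes, 1 passed the screening rule, as lower (1.65% of all tested genes passed as lower). Taken singly, 2 of the 8 did not overlap between genotypes, beside 9.90% of all tested genes. The sums of the absorptive colonocyte markers (6080 to 13200 and 5150 to 6470 CPM) and of the neutrophil markers (207 to 897 and 198 to 2360 CPM) overlapped between genotypes. The neutrophil sum of 2360 CPM in Vil-KO replicate 2 came mostly from Ly6g (1360 CPM), S100a8 (574 CPM) and S100a9 (405 CPM). Of the other markers of the list, Csf3r was lowest there, at 0.666 CPM. Cxcr2, Mmp8 and Retnlg, at 5.1, 2.5 and 13 CPM there, were exceeded only by f/f replicate 1 (12.5, 12.7 and 48.7 CPM). The part of these cell type markers in the receptor values was not tested.

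**Figure D5:**
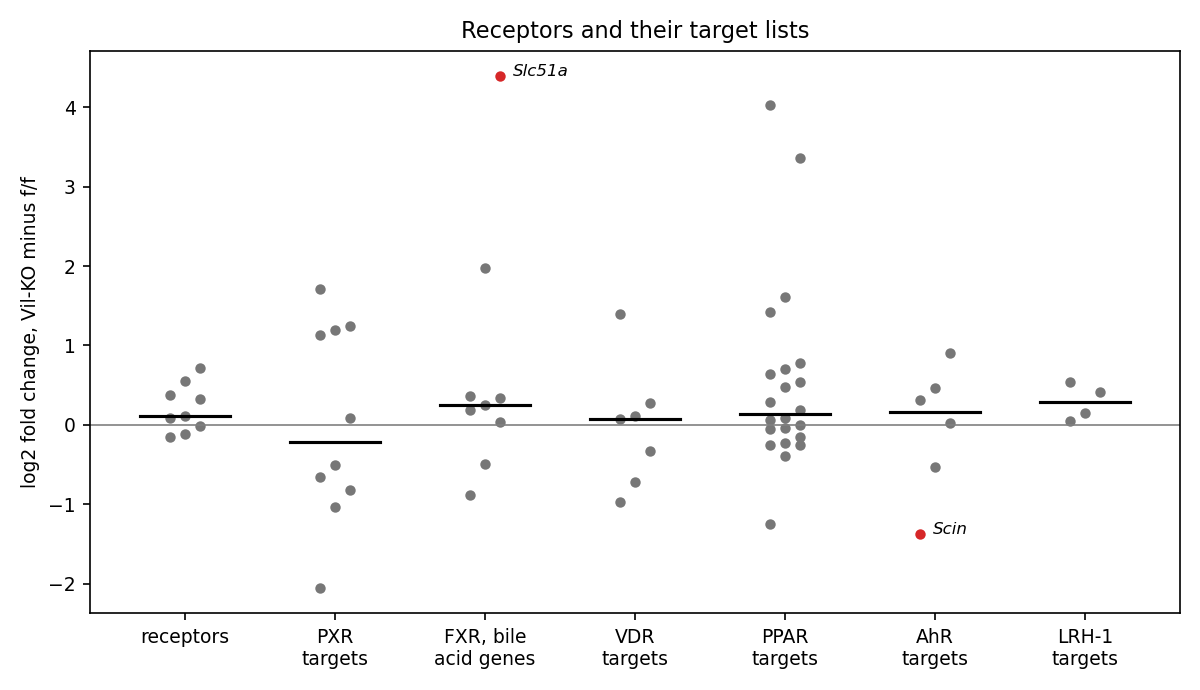
log2 fold change (Nsd2 Vil-KO minus Nsd2 f/f, 6 libraries) of every tested gene of the receptor list and of 6 target lists, with a bar at each list's median and red points for genes past the screening rule. Slc51a at 4.39 and Scin at -1.37 are the red points, and every list's median lies between -0.21 and 0.29.

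The AhR chaperone gene Hsp90ab1 measured 1320 to 1550 CPM in Nsd2 f/f and 1430 to 1450 CPM in Nsd2 Vil-KO. Among 35 other nuclear receptors, 25 were tested and 1 passed, the oestrogen receptor gene Esr2, with 1.39, 1.48 and 2.99 CPM in Nsd2 f/f and 0.585, 0 and 0.664 CPM in Nsd2 Vil-KO (log2 fold change -2.15, unadjusted p = 0.0293, adjusted p = 0.992 by edgeR). This is 1 of 25 beside 3.29% of all tested genes. Esr2 missed the rule without Vil-KO replicate 1 (log2 fold change -2.46, unadjusted p = 0.0525 by edgeR) or f/f replicate 3 (-1.73, unadjusted p = 0.0787) and passed it in the 4 libraries (-1.18, unadjusted p = 0.0472). Nr1i3, which encodes CAR, the closest relative of PXR, was scarce at 0.248, 0.827 and 1.78 CPM in Nsd2 f/f and 0.341, 0.888 and 0.204 CPM in Nsd2 Vil-KO. Hnf4a, a regulator of the gut epithelium, measured 552, 697 and 830 CPM in Nsd2 f/f and 706, 390 and 796 CPM in Nsd2 Vil-KO, so it was lowest in Vil-KO replicate 2, as Ppard was.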

How the data were processed

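RNA-seq of colon IECs from DSS-treated mice was analysed in 6 libraries, assigned to genotype and replicate from the sample titles. The authors deposited whole-number read counts per Ensembl gene, without normalisation or a filter. Per the methods, polyA RNA and a directional kit were used (the labels name another kit) and reads were aligned to GRCm38 with HISAT2. The counting program is not given in the sources used here.

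Counts were tested with edgeR 4.0.16 in R 4.3.3 (TMM factors, low counts filtered by genotype, robust quasi-likelihood fit), with Benjamini-Hochberg adjustment over 14650 genes. The limits of the screening rule were taken from the study's results, and its p was read as unadjusted. The study's methods name an adjusted p below 0.05 and another test, Ballgown on length-scaled expression (FPKM). limma 3.58.1 and DESeq2 1.42.0 served as alternatives. A self-test was run on simulated counts. Exon lengths were the union of GENCODE vM21 exons (99.4% of genes matched), and promoter windows came from RefSeq. Figures were drawn with matplotlib 3.10.9.

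The receptors and all gene lists were chosen with earlier results of these data known. The text names every receptor, Nsd2, the genes of each target list past the screening rule with the 3 most abundant, partners and other nuclear receptors past the rule with Nr1i3, Arnt, Rxrb and Hnf4a, and for Nr1i2, Vdr, Pparg and Ahr the 3 genes nearest in pattern. Genes named beyond this rule were picked after their values were seen. Some genes that this rule would name are not reported here, and counts over lists include them. No 2 libraries were identical. The alternatives covered scaling, filter, model, fold limit, replicate block and left-out libraries.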

Additional observations from a re-analysis of the deposited data

How the results depend on the processing

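The median log2 fold change of the receptors, 0.11, ran from -0.04 to 0.34 when 1 library was left out, where the within-genotype SD of the receptors' median log2 CPM was 0.23. The count of receptors past the screening rule, 0 of 9, became 2 with library size only, 1 with limma-voom, 3 in the 4 libraries, and 0 to 1 with 1 library left out (1 without Vil-KO replicate 3). The count of target genes, 2 of 58, became 5 with library size only, 5 with DESeq2, 6 with limma-voom and 1 with the replicate block. It became 1 of 49 with at least 10 counts in every library, 12 of 56 in the 4 libraries, and 2 to 6 with 1 library left out. In alternatives chosen after seeing the data, it became 1 with the earlier quasi-likelihood estimate of edgeR and 4 with scaling to 12 epithelial genes. Of all tested genes, 3.29% passed in the main setting, 2.61% with library size only, 3.21% with at least 10 counts, 4.32% with DESeq2 and 9.83% with limma-voom. The share was 2.07% with the replicate block, 11.0% in the 4 libraries and 2.14% to 5.08% with 1 library left out. It was 2.96% and 2.09% in the alternatives chosen after seeing the data. Deviations of samples with the same replicate number from their genotype means had correlations of 0.322, -0.350 and -0.108 for numbers 1 to 3. With 3 libraries per genotype, and the outlying pair carrying different numbers, these values cannot tell whether the numbers pair the libraries. With the replicate block, 0 receptors passed. Signs turned in at least 1 alternative for 7 of the 9 receptors, all but Pparg and Rxra. Vdr became 0.26 with limma-voom and 0.37 in the 4 libraries, Ppard 0.08 with library size only, 0.21 with limma-voom and 0.26 in the 4 libraries, and Nr5a2 0.11 with limma-voom and 0.16 in the 4 libraries. With 1 library left out, log2 fold changes ran from -0.04 to 0.26 for Nr1i2, -0.04 to 0.58 for Nr1h4, -0.36 to 0.24 for Vdr, -0.53 to 1.29 for Ppara, -0.24 to 0.18 for Ppard, -0.03 to 0.21 for Ahr, -0.37 to 0.34 for Nr5a2, 0.19 to 0.96 for Pparg and 0.21 to 0.45 for Rxra. The cause was not tested.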
